A study of Saccharomyces cerevisiae BY4741 with 2 samples.

Results

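The proteasome is the large protease that degrades ubiquitin-tagged proteins in the cytosol and nucleus of Saccharomyces cerevisiae, budding yeast. The genes described here are 33 of the 7134 rows of a sense-strand count table, chosen by name as the genes for 32 proteasome subunits and for Rpn4, their transcriptional activator. They comprise 14 genes of the core particle (7 of the alpha ring and 7 of the beta ring), 18 of the regulatory particle (6 of the ATPase ring, 4 for the base scaffold and ubiquitin receptors, 8 of the lid) and RPN4. The data are from sequencing of total RNA of a dbp2 deletion strain and of a wild type, with 2 libraries of each strain. Each strain is a single sample record, titled as a re-analysis, whose description names 2 replicates. DBP2 codes for a DEAD-box RNA helicase. The deletion strain was MATa dbp2::KanMx with ura3Δ0, leu2Δ0, his3Δ0, TRP1, met- and lysΔ. The wild type was BY4741, which is MATa with his3Δ1, leu2Δ0, met15Δ0 and ura3Δ0. Both strains lacked working LEU2 and URA3, and both grew to mid-log phase in yeast extract and peptone with glucose. Because the strains also differ in HIS3, methionine and lysine markers, the effect of the dbp2 deletion and that of the rest of the strain background cannot be told apart. The labels do not tell whether the 2 libraries of each strain are from different cultures, so a p-value here reflects the spread between the libraries alone, and that spread may be technical.

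The proteasome core particle is a barrel of stacked rings. The outer alpha rings form a gate, and the inner beta rings carry the proteolytic sites. The regulatory particle binds ubiquitin chains, removes them, and feeds the unfolded substrate into the core by means of a ring of ATPases. In yeast most subunit genes share a promoter element, the proteasome-associated control element (PACE), that is bound by Rpn4, and Rpn4 is itself a short-lived substrate of the proteasome, so that its level rises when proteolysis is limiting.

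The libraries held 36028173 and 24961576 counts in the deletion strain and 10860000 and 12586037 counts in wild type. Of all rows, 6124 passed the filter on low counts, and at an adjusted p below 0.05 in edgeR's quasi-likelihood test 1301 features were called higher and 1268 called lower with DBP2 deleted. Across features, the correlation of log2 CPM was 0.984 for the pair of deletion libraries and 0.979 for the pair of wild-type libraries, and 0.881 to 0.908 for pairs of different strains. DBP2 itself had 1.62 and 7.87 CPM (counts relative to the scaled library total) in the deletion libraries, against 798 and 885 CPM in the wild-type libraries. LYS2 had 8 and 5 counts in the deletion libraries, against 2373 and 2809 counts in wild type, so the lysine marker also separated the strains. HIS3 had 1158 and 751 counts in the deletion libraries, although that strain is labelled with a HIS3 deletion, against 94 and 101 in wild type. MET17, also named MET15, had 1772 and 1243 counts in the deletion libraries, against 8 and 1 in wild type. The counts thus did not bear out the HIS3 label of the deletion strain, and the cause was not tested.

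The PACE letters searched were GGTGGCAAA, on both strands, in the window from 250 bases before to 50 bases after the start codon. They were found in 27 of the 33 genes, once in each, and in 72 of the 6001 protein-coding gene windows of the R64 reference genome (1.2%). The sites lay 76 to 175 bases before the start codon (median 112), 19 on the strand of the gene and 8 on the opposite strand. The sites of the 8 genes that held the element and differed between the strains are given below 5′ to 3′ on the strand of the motif, with 8 flanking bases on each side and the motif in capitals. The genes PRE6 and PRE4 were higher in the deletion strain and the other 6 were lower.
PRE6: tcccttccGGTGGCAAAagaatctt
PRE4: gtatttaaGGTGGCAAAttctaaac
PRE2: agcaaaagGGTGGCAAAacgaagaa
RPT2: ttttctccGGTGGCAAAtgtctctt
RPT4: ttcccttcGGTGGCAAAttccacta
RPT5: caatatgtGGTGGCAAAaatgaatt
RPN1: tgttttacGGTGGCAAAaggcgagc
RPN7: cctcaatgGGTGGCAAActtaactt

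Of the 6 genes without the full element, 5 held a run that differed from it at 1 base, shown next with the shared letters in capitals. RPN4 lacked any run within 1 mismatch, and its nearest run, shown last, differed at 3 bases. With at most 1 mismatch allowed, the element was found in 32 of 33 of these genes and in 454 of the 6001 windows (7.57%).
PRE5: aGTGGCAAA
PUP1: aGTGGCAAA
RPN8: aGTGGCAAA
RPN10: GGTGGCgAA
RPN13: GGTGGCgAA
RPN4: cGTGGaAtA

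The whole 300-base windows of 4 genes are given 5′ to 3′ on the strand of the gene, because RPN7 had the largest fall and PRE6 and PRE5 had rises that held under every scaling tried, while RPN4 codes for the activator. Capitals mark the PACE in RPN7 and PRE6 (on the opposite strand in both, so that its reverse complement is seen), the closest run to it in PRE5, and in RPN4 a heat shock element. The heat shock element is the target of the transcription factor Hsf1 and was searched on both strands as 3 GAA units in alternating orientation, each 2 bases from the next. It was present in 47 of the 6001 windows (0.783%) and in 1 of these 33 genes, RPN4, at 9 bases before its start codon.
RPN7, R64 chrXVI:742204-742503, plus strand: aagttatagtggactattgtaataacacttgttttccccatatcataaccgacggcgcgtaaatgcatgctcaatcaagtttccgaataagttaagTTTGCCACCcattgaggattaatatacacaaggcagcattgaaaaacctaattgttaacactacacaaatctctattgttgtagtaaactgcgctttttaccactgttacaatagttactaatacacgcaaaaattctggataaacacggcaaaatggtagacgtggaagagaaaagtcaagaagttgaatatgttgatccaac
PRE6, R64 chrXV:255087-255386, plus strand: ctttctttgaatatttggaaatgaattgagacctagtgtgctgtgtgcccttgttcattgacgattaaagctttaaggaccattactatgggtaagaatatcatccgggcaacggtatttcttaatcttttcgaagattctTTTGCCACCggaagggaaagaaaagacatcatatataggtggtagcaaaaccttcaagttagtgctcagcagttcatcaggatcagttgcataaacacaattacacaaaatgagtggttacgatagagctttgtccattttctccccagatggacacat
PRE5, R64 chrXIII:901459-901758, plus strand: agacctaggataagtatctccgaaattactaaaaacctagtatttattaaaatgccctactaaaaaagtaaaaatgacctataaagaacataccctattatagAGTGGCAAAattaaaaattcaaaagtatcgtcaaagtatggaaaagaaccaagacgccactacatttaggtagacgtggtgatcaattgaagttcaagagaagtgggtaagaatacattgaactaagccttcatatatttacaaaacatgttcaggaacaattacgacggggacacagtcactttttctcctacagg
RPN4, R64 chrIV:416659-416958, minus strand: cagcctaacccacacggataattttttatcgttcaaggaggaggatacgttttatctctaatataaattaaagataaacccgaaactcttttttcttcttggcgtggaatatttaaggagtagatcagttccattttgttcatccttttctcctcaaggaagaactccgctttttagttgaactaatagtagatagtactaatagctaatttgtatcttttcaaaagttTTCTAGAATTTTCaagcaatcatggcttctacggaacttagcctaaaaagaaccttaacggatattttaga

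The comparison asked how the RNA of each of these genes differed between the deletion strain and wild type. The proteasome genes did not move as a block. All 33 passed the filter on low counts, with 152 to 21016 counts in a library. In the deletion strain 3 of them were higher (PRE5, PRE6 and PRE4, all of the core particle; 9.09%), against 21.2% of all features tested. In the other direction 8 of them were lower (RPN7, RPT5, RPN1, PRE2, RPT4, RPN8, RPT2 and RPN13; 24.2%), against 20.7% of all features tested. The other 22 did not pass the test. The share called lower was thus near that of the whole table, and the share called higher was below it. The median log2 fold change of the 33 genes was -0.20, with a range of -1.30 to 1.09, against 0.01 over all features tested. Among the 3431 features in the same range of mean abundance the median was -0.13, with 15.7% higher and 25.3% lower. In bulk RNA, fewer cells of a kind and less RNA per cell cannot be told apart.

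Both deletion libraries lay above both wild-type libraries for 8 of the 33 genes, against 38.3% of all features tested, and below both for 18 of them, against 36.3% of all features tested. For 7 genes the strains overlapped. The direction of small differences depended on how the libraries were scaled. The values above use TMM scaling. Scaling by library totals shifts the median of all features up by 0.45 on the log2 scale, and 10 of the 33 genes were then higher and 1 lower, beside 2502 higher and 583 lower of all features tested. With offsets fitted to abundance 5 were higher and 1 was lower, beside 1123 and 1169 of all features. PRE6, PRE5 and PRE4 (higher) and RPN7 (lower) were called the same way under all 3 scalings. The other 7 falls kept a negative log2 fold change under library totals and under the offsets but passed the test under neither.

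**Figure D1:**
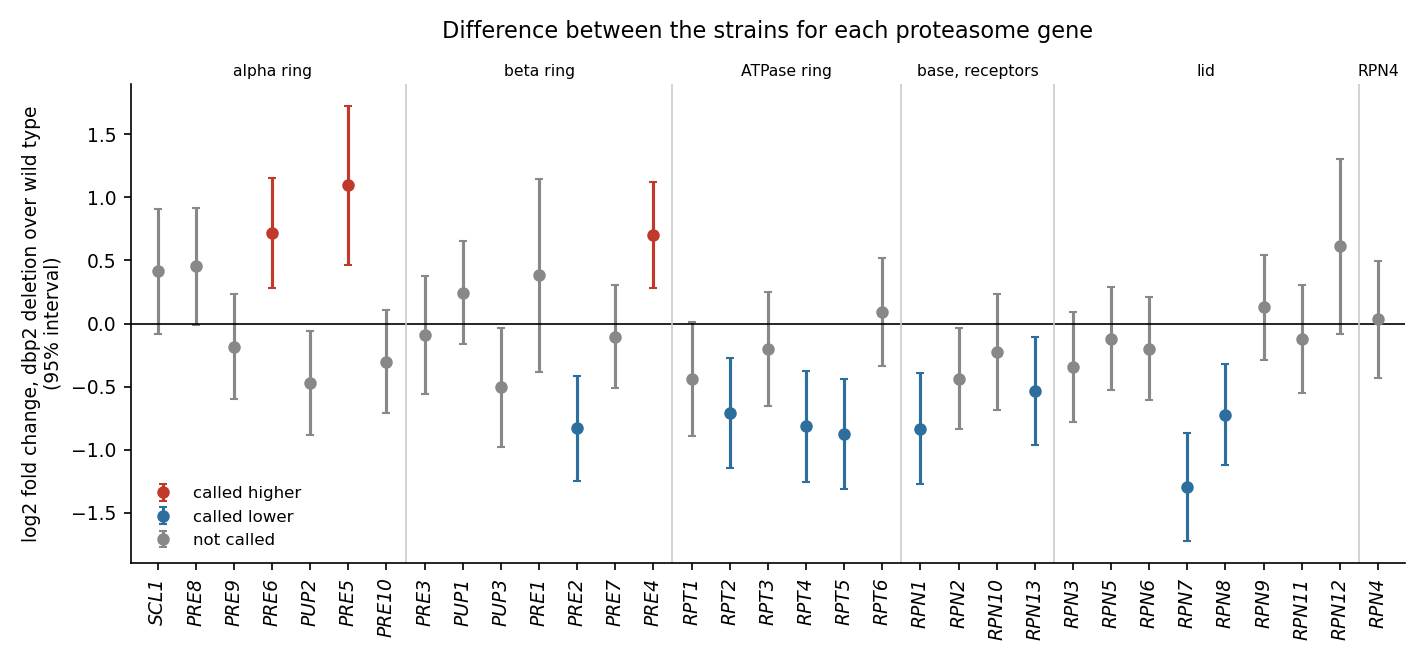
Log2 fold change, deletion over wild type, of each of the 33 genes, grouped by subcomplex. Points are edgeR estimates with 95% intervals, and red and blue mark genes called higher and lower at an adjusted p below 0.05. The estimates run from -1.30 for RPN7 to 1.09 for PRE5, and the called rises are PRE5, PRE6 and PRE4 of the core particle.

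RPN4, the activator (YDL020C, R64 chromosome IV, 415113 to 416708, minus strand, 1 coding exon), had 70.0 and 73.5 CPM in the deletion libraries, against 80.2 and 60.2 CPM in the wild-type libraries. The deletion values lay between those of wild type. Its log2 fold change was 0.03 (SE 0.21, 95% interval -0.43 to 0.49, adjusted p = 0.913 in edgeR's quasi-likelihood test). The sign turned to -0.12 without wild type 2 and to -0.0026 without deletion 3. In the other direction, the log2 fold change of RPN4 was 0.48 under library totals and 0.16 under the offsets fitted to abundance. RPN4 passed the test under neither. Per kilobase of coding length RPN4 RNA was at 43.8 and 46.1 CPM in the deletion libraries, against 50.3 and 37.7 CPM in wild type. In those libraries the median subunit was at 163 and 169 CPM per kilobase, against 178 and 199 in wild type.

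Of the 6 factors listed as known to act on RPN4 transcription or on Rpn4 protein, HSF1 and PDR1 were higher. YAP1, PDR3, UBR2 and MUB1 did not pass the test. That is 33.3% higher and 0% lower, against 21.2% and 20.7% of all features tested. HSF1, the heat shock factor, had 43.5 and 42.1 CPM in the deletion libraries, against 17.5 and 15.8 CPM in wild type, a log2 fold change of 1.36 (SE 0.21, adjusted p = 0.00127 in edgeR's quasi-likelihood test) that was called under all 12 alternative settings. PDR1, a regulator of drug resistance genes, had 77.2 and 67.9 CPM in the deletion libraries and 50.2 and 37.6 CPM in wild type (log2 fold change 0.72, SE 0.21, adjusted p = 0.0224). PDR1 was not called without wild type 2 (adjusted p = 0.0915) or without deletion 2 (adjusted p = 0.0951). The drug response element of Pdr1, searched on both strands as TCCGTGGA or TCCGCGGA (0.4% and 0.217% of all windows), and the Yap1 letters TTAGTAA (7.45% of all windows) were not in the RPN4 window. The window reached only 250 bases before the start codon, so the search cannot tell whether RPN4 has these elements further upstream.

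In the alpha ring 2 of 7 genes rose and none fell (median log2 fold change 0.42). These shares were 28.6% and 0%, against 21.2% and 20.7% of all features tested. Under library totals 4 rose and under the offsets 3, again with no fall. Of the 6124 features tested, 2502 were higher and 583 lower under library totals, and 1123 higher and 1169 lower under the offsets. PRE5 codes for the alpha6 subunit (YMR314W, R64 chromosome XIII, 901709 to 902413, plus strand, 1 coding exon). It had 49.3 and 38.9 CPM in the deletion libraries, against 26.2 and 15.3 CPM in wild type. The strains did not overlap, but wild type 1 was 1.71 times wild type 2. The cause of that spread was not tested, and fits without each wild-type library are among the alternatives given next. PRE5 was 2.13-fold higher (log2 fold change 1.09, SE 0.28, adjusted p = 0.0131), and it was called in all 12 alternatives, with adjusted p from 3.87e-04 to 0.0486. PRE6 codes for alpha4 (YOL038W, R64 chromosome XV, 255337 to 256101, plus strand, 1 coding exon) and had 181 and 217 CPM in the deletion libraries, against 119 and 123 CPM in wild type. Both deletion libraries lay above wild type, and PRE6 was 1.64-fold higher (log2 fold change 0.72, SE 0.19, adjusted p = 0.0159). Without wild type 1 its adjusted p was 0.0567 and without deletion 3 it was 0.0956. In the alpha6 and alpha4 genes the PACE differs: PRE6 holds the full element and PRE5 only the run with 1 mismatch shown above.

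The other 5 alpha genes did not pass the test, with log2 fold changes from -0.47 for PUP2 to 0.45 for PRE8. PUP2, alpha5, had 267 and 236 CPM in the deletion libraries and 352 and 345 CPM in wild type, with a 95% interval of -0.88 to -0.06 and an adjusted p of 0.0658 in edgeR's quasi-likelihood test. PRE8, alpha2, had 164 and 149 CPM in the deletion libraries and 130.5 and 98.6 CPM in wild type, with an interval of -0.01 to 0.92. SCL1, alpha1, had 70.1 and 66.9 CPM in the deletion libraries and 60.8 and 42.0 CPM in wild type. The strains did not overlap for any of these 3 genes. SCL1 was called higher without wild type 1 (0.70, adjusted p = 0.0370) and under library totals (0.87, adjusted p = 0.00639). PRE8 was called higher under library totals (0.90, adjusted p = 0.00348) and under the offsets (0.74, adjusted p = 0.0201). PRE9 (alpha3, the alpha subunit that yeast can live without) and PRE10 (alpha7) had log2 fold changes of -0.18 and -0.30.

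In the beta ring 1 of 7 genes rose and 1 fell (median -0.09). That is 14.3% each, against 21.2% higher and 20.7% lower of all features tested. Under library totals 3 rose and none fell, beside 2502 higher and 583 lower of the 6124 features tested. Under the offsets 2 rose and none fell, beside 1123 higher and 1169 lower of all features. The proteolytic subunits are Pre3 (caspase-like), Pup1 (trypsin-like) and Pre2 (chymotrypsin-like). PRE2 (YPR103W, R64 chromosome XVI, 732349 to 733212, plus strand) had 236 and 239.7 CPM in the deletion libraries, against 391 and 453 CPM in wild type, with all deletion values below all wild-type values. PRE2 was 1.78-fold lower (log2 fold change -0.83, SE 0.18, adjusted p = 0.00693), but it did not pass under library totals or the abundance offsets, and its adjusted p was 0.05004 without wild type 2. PUP1 had 143 and 147 CPM in the deletion libraries and 122 and 123 CPM in wild type (0.24, interval -0.16 to 0.65). It did not pass under TMM and was called higher under library totals (0.69) and offsets (0.54). PRE3, the one gene of the 33 with 2 coding parts, had overlapping values and a log2 fold change of -0.09 (interval -0.56 to 0.38). The genes of the 3 proteolytic subunits thus did not share a call.

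Among the non-catalytic beta genes PRE4, beta7 (YFR050C, R64 chromosome VI, 249066 to 249866, minus strand, 1 coding exon), had 113 and 122 CPM in the deletion libraries, against 76.2 and 67.8 CPM in wild type. It was 1.63-fold higher (log2 fold change 0.70, SE 0.19, adjusted p = 0.0152), without overlap between the strains. The adjusted p of PRE4 was 0.0614 without wild type 2 and 0.0590 without deletion 3. PRE1 (beta4), PRE7 (beta6) and PUP3 (beta3) did not pass the test. PRE1 was at 32.3 and 20.4 CPM in the deletion libraries and 26.7 and 13.9 CPM in wild type, so the libraries of each strain differed more than the strains, and its interval ran from -0.38 to 1.15. It was called higher under library totals (0.82, adjusted p = 0.0391). PUP3 had 186 and 207 CPM in the deletion libraries and 237 and 321 CPM in wild type (-0.51, interval -0.98 to -0.03, adjusted p = 0.0799), and it was called lower without wild type 1 (-0.71, adjusted p = 0.0369).

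Ratios of counts within 1 library do not depend on scaling by 1 factor for each library, as with TMM or library totals. The offsets fitted to abundance differ between genes, so these ratios are not free of that choice. There were 3.13 and 4.36 RPN7 counts for each PRE5 count in the deletion libraries, against 14.1 and 27.9 in wild type. For each PRE4 count there were 2.09 and 1.97 PRE2 counts in the deletion libraries, against 5.14 and 6.69 in wild type. The strains did not overlap in either ratio. These pairs were chosen after their values were seen.

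The ATPase ring, Rpt1 to Rpt6, unfolds substrates and opens the gate of the core. In it 3 of 6 genes fell and none rose (50% lower, against 20.7% of all features tested; median -0.58), whereas under library totals RPT6 rose and none fell, and under the offsets none was called. RPT5 had 153 and 168 CPM in the deletion libraries, against 269.9 and 319.5 CPM in wild type (1.83-fold lower, log2 fold change -0.88, SE 0.19, adjusted p = 0.00661). RPT4 had 152 and 156 CPM in the deletion libraries, against 241 and 301 CPM in wild type (log2 fold change -0.81, adjusted p = 0.00989). RPT2 had 185 and 206 CPM in the deletion libraries, against 291 and 349 CPM in wild type (log2 fold change -0.71, adjusted p = 0.0167). For these 3 genes the strains did not overlap, and all 3 calls were lost under library totals and under the offsets. Without wild type 2, RPT4 (adjusted p = 0.0726) and RPT2 (0.111) did not pass, nor did RPT2 without deletion 2 (0.0964).

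RPT1 was at 385 and 386 CPM in the deletion libraries and 446 and 599 CPM in wild type (-0.44, interval -0.89 to 0.01), and it was called lower without wild type 1 (-0.64, adjusted p = 0.0471). RPT3 and RPT6 had overlapping values, with log2 fold changes of -0.20 (interval -0.65 to 0.25) and 0.09 (interval -0.34 to 0.52). RPT6 had 202 and 220.3 CPM in the deletion libraries and 184 and 213 CPM in wild type, and it turned to -0.017 without wild type 1. Over the whole ring, whose subunits occur in equal copies in the particle, the log2 fold changes of the RNAs ran from -0.88 to 0.09.

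In the rest of the base, 2 of 4 genes fell and none rose (50% lower, against 20.7% of all features; median -0.49), whereas none was called under library totals or the offsets. Rpn1 and Rpn2 are the large scaffolds, and Rpn10 and Rpn13 are ubiquitin receptors. RPN1 had 297 and 288 CPM in the deletion libraries, against 457 and 585 CPM in wild type (1.78-fold lower, log2 fold change -0.83, SE 0.19, adjusted p = 0.00859), and its adjusted p was 0.0726 without wild type 2. RPN2 had 516 and 559.6 CPM in the deletion libraries and 682 and 774 CPM in wild type (-0.44, interval -0.84 to -0.04, adjusted p = 0.0746). RPN13 had 47.5 and 41.8 CPM in the deletion libraries, against 62.7 and 66.9 CPM in wild type (log2 fold change -0.54, adjusted p = 0.0470). RPN13 kept its call in 4 of 12 alternatives and lost it whichever single library was left out, with adjusted p from 0.0608 to 0.253. RPN10 overlapped between the strains, at -0.22 (interval -0.68 to 0.24).

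The lid holds the deubiquitinase Rpn11, its partner Rpn8, and a horseshoe of scaffold subunits that includes Rpn7. In the lid 2 of 8 genes fell and none rose (25% lower, against 20.7% of all features; median -0.16), whereas under library totals RPN7 fell while RPN9 and RPN12 rose, and under the offsets RPN7 alone was called. RPN7 (YPR108W, R64 chromosome XVI, 742454 to 743743, plus strand, 1 coding exon) had 154 and 169.6 CPM in the deletion libraries, against 369.9 and 426 CPM in wild type. That is a mean of 162 ± 10.7 CPM in the deletion strain and 398 ± 39.7 CPM in wild type (SD, n = 2 libraries each). It was 2.46-fold lower, the largest fall among the 33 genes (log2 fold change -1.30, SE 0.19, adjusted p = 9.13e-04), and was called in all 12 alternatives, with adjusted p from 3.02e-08 to 0.00769. RPN8 had 276 and 288 CPM in the deletion libraries, against 446 and 483 CPM in wild type (1.65-fold lower, log2 fold change -0.72, SE 0.18, adjusted p = 0.0115). RPN8 did not pass without wild type 2 (adjusted p = 0.0676) or without deletion 2 (0.0607). RPN11, the catalytic partner of Rpn8, had 142 and 129 CPM in the deletion libraries and 137 and 159 CPM in wild type (-0.13, interval -0.55 to 0.30).

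The other lid genes ranged from -0.34 for RPN3 to 0.61 for RPN12 and none passed the test. RPN12 had 42.3 and 39.5 CPM in the deletion libraries and 36.1 and 17.6 CPM in wild type, with an interval of -0.08 to 1.30. Wild type 1 was 2.05 times wild type 2, and RPN12 was called higher without wild type 1 (1.21, adjusted p = 0.00628) and under library totals (1.06, adjusted p = 0.00750). RPN5, RPN6 and RPN9 had log2 fold changes of -0.12, -0.20 and 0.13. Over the regulatory-particle genes of this set, 7 of 18 fell and none rose (38.9% lower and 0% higher, against 20.7% and 21.2% of all features tested), with a median of -0.39. There were 1 fall and 3 rises under library totals and 1 fall under the offsets. SEM1 is not in this set and is counted with the proteasome-associated proteins below. In the core particle 3 of 14 rose and 1 fell (21.4% and 7.14%, with a median of 0.08). There 7 rose and none fell under library totals, and 5 rose and none fell under the offsets. Of the 6124 features tested, 2502 were higher and 583 lower under library totals, and 1123 higher and 1169 lower under the offsets. The difference between the particles was not tested.

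**Figure D2:**
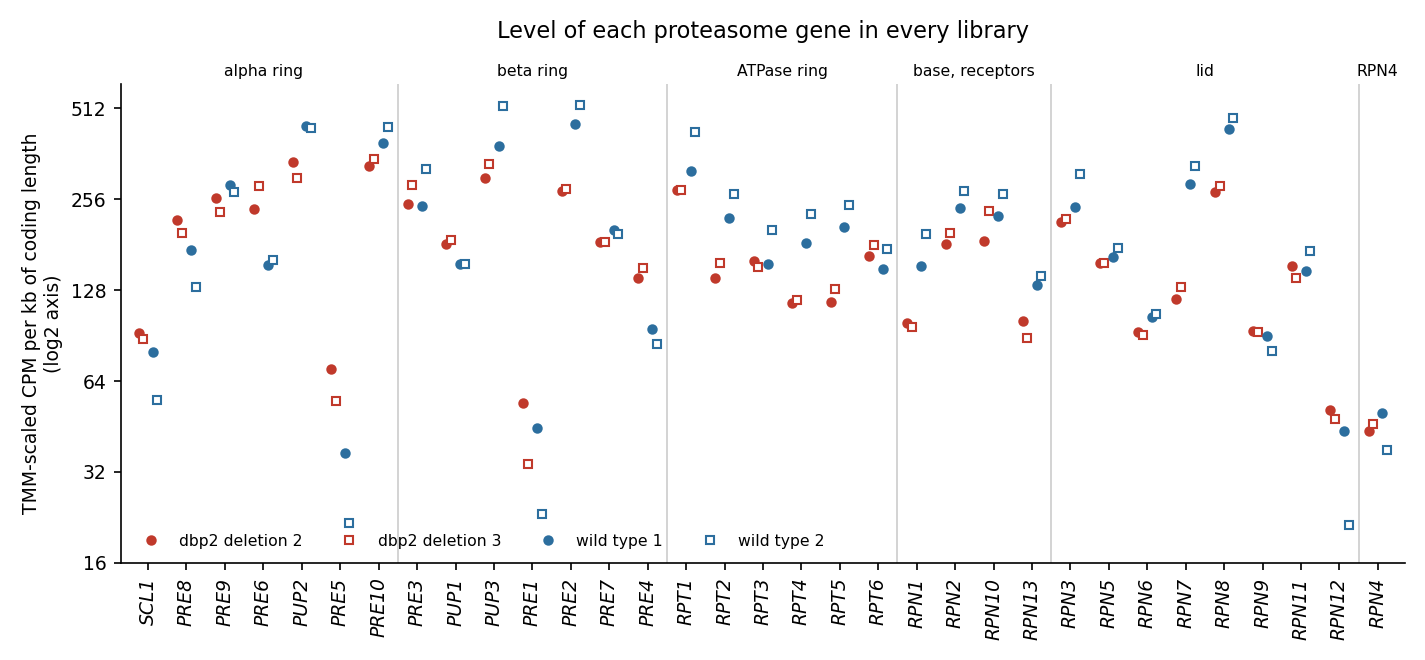
Level of each gene in CPM per kilobase of coding length (log2 axis), in the 2 deletion libraries and the 2 wild-type libraries, grouped by subcomplex. PRE2 is highest in both wild-type libraries (453 and 525), and the wild-type values of RPN12, PRE1 and PRE5 lie far apart.

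Levels were compared between genes in CPM per kilobase of coding length. Among the 32 subunit genes the highest level was 6.65 and 10.2 times the lowest in the deletion libraries, against 12.2 and 24.6 times in wild type. The SD of the log2 level over the 32 genes was 0.73 and 0.84 in the deletion libraries, against 0.94 and 1.26 in wild type. The subunit genes lay closer to each other in both deletion libraries, although wild type 2 stood apart from wild type 1 in this measure and its part in the result was not tested. The same spread was not computed over other genes, so it cannot be called particular to the subunit genes. The highest levels were those of PUP2 (341 in deletion 2) and PRE10 (349 in deletion 3), and of PRE2 in wild type (453 and 525). The lowest were RPN12 (51.2 in deletion 2) and PRE1 (34.1 in deletion 3), and PRE5 (37.1 in wild type 1) and RPN12 (21.3 in wild type 2). By the mean of a strain, RPN7 ranked 22 of 32 in the deletion strain, against 7 in wild type, and PRE6 ranked 8 in the deletion strain, against 22 in wild type. PUP3 ranked 3 and RPT1 ranked 6 in both strains.

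The core genes summed to 2223 and 2245 CPM in the deletion libraries, against 2409 and 2549 CPM in wild type. The regulatory genes summed to 3689 and 3821 CPM in the deletion libraries, against 4849 and 5725 CPM in wild type. As a share of all counts, with no scaling, the 32 genes made up 0.669% and 0.732% in the deletion libraries, against 0.613% and 0.718% in wild type, so the raw shares of the strains overlapped.

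**Figure D3:**
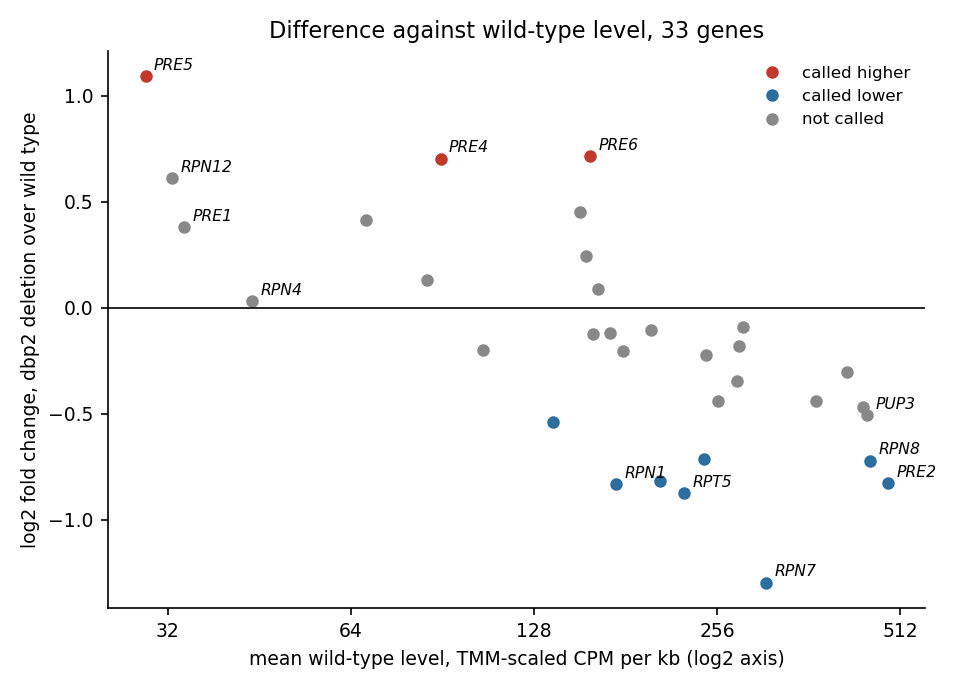
Log2 fold change, deletion over wild type, of the 33 genes against their mean wild-type level in CPM per kilobase of coding length (log2 axis), coloured by call. PRE5, RPN12 and PRE1, which have the lowest levels, lie above 0, and RPN7, RPN8 and PRE2, which are among the highest, lie below it. The same wild-type libraries enter both axes.

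Across the 33 genes the log2 fold change went down with abundance. Its correlation with the mean log2 CPM was -0.68 (Pearson) and -0.72 (Spearman), against -0.39 and -0.42 over 5595 protein-coding genes tested. With the log2 ratio of wild type 1 to wild type 2 it was 0.70 and 0.66, against 0.19 and 0.23 over those 5595 genes. With coding length it was -0.41 and -0.44, against -0.06 and -0.03 over all of them. These are correlations across genes, which are not independent replicates, and the fold change shares its libraries with the first 2 measures. The genes for which wild type 1 exceeded wild type 2 most were RPN12 (2.05 times), PRE1 (1.92 times), PRE5 (1.71 times) and SCL1 (1.45 times), all with a positive log2 fold change. The part of abundance and of the spread between the wild-type libraries in the differences between subunits was not tested.

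**Figure D4:**
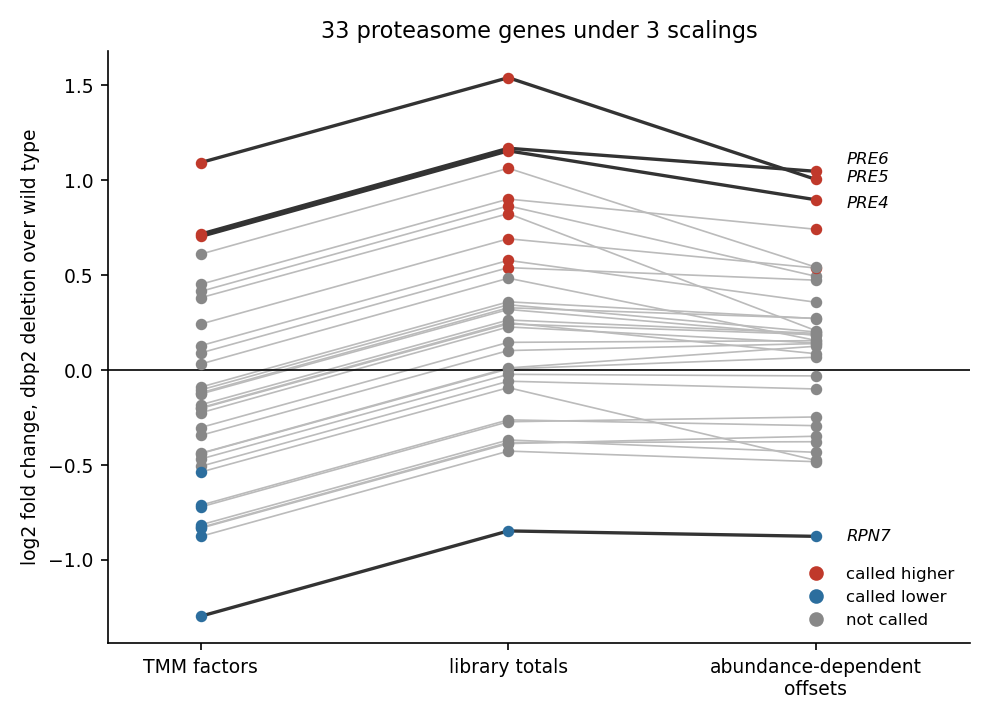
Log2 fold change, deletion over wild type, of the 33 genes under TMM scaling, library totals and abundance-dependent offsets, with 1 line for each gene. PRE6, PRE5 and PRE4 stay above 0 and RPN7 stays below it under all 3, while 12 genes that are negative under TMM are above 0 under each of the other scalings.

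Genes with and without the PACE were set side by side, with no test of the difference. Of the 27 genes with the full element 2 rose and 6 fell (median -0.20), and of the 6 without it 1 rose and 2 fell (median -0.10). The called genes with the element were 8 of 11. Outside the proteasome genes 45 windows held the element, and of the 44 of these genes that were tested 12 were higher and 10 lower (27.3% and 22.7%, near the 21.2% and 20.7% of all features tested), with a median of 0.00. In 7 cases the PACE of a proteasome gene also lay in the window of a gene on the other strand. RPN7 shares its site with YTH1, a cleavage and polyadenylation factor gene, which had 20.9 and 24.01 CPM in the deletion libraries and 22.8 and 17.1 CPM in wild type (log2 fold change 0.17, adjusted p = 0.597). RPT6 shares its site with ALG13, a glycosyltransferase subunit gene, which fell to 8.76 and 15.2 CPM in the deletion libraries, against 40.3 and 43.0 CPM in wild type (-1.80, adjusted p = 0.00135 in edgeR's quasi-likelihood test). RPT6 itself did not pass the test. The other 5 neighbours, MPO1, YOL038C-A, GCD1, NOP14 and YPI1, did not pass it either.

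**Figure D5:**
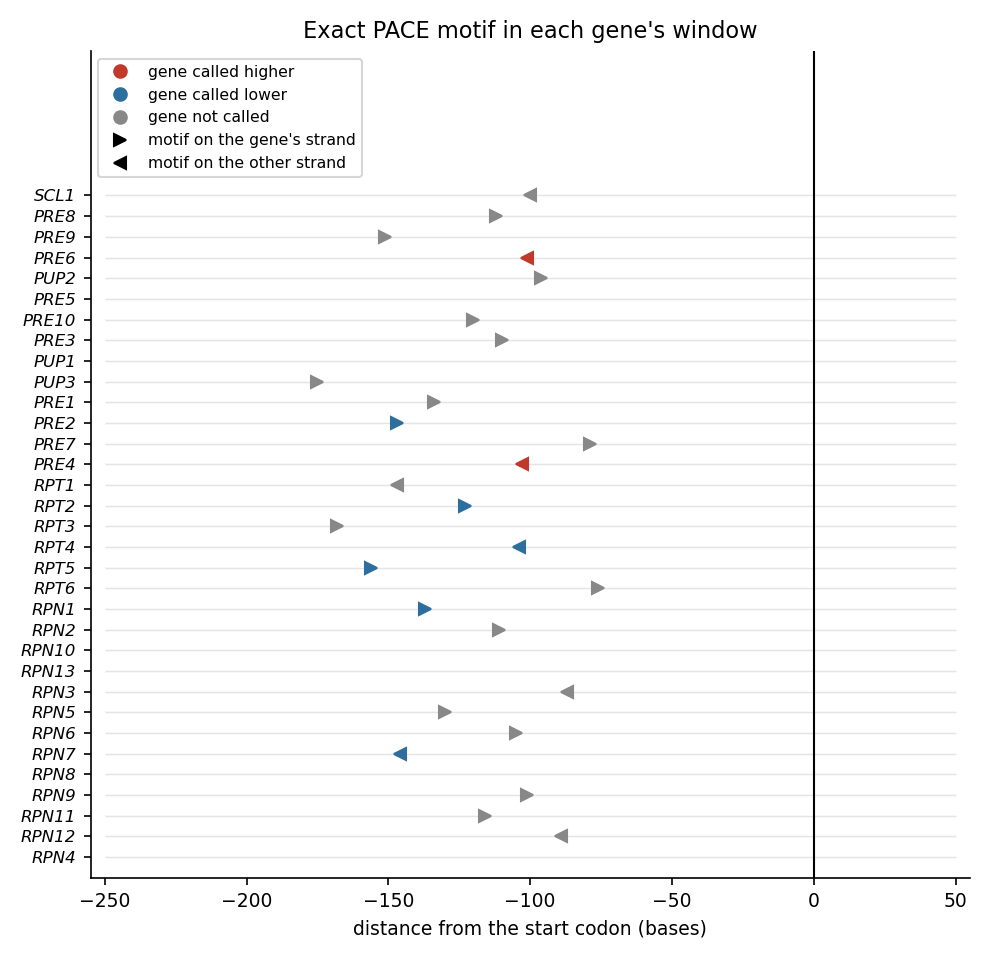
Distance of the full PACE from the start codon, in bases, with 1 row for each of the 33 genes, the marker pointing by strand and coloured by call. Markers lie 76 to 175 bases before the start codon in 27 rows, whether the gene was higher, lower or not called, and the 6 rows with no marker are genes without the full element.

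Of 81 further genes of the ubiquitin and proteasome system that were tested, 15 rose and 10 fell in the deletion strain (18.5% and 12.3%, both below the 21.2% and 20.7% of all features tested), and 8 of the rises and 3 of the falls were called in all 12 alternatives. Assembly chaperones build the particle and leave it, and 2 of 10 rose and 1 fell (median 0.28). TMA17, which helps assemble the ATPase ring, had 53.9 and 81.3 CPM in the deletion libraries, against 18.0 and 23.4 CPM in wild type (log2 fold change 1.70, SE 0.26, adjusted p = 0.00109), and was called in all 12 alternatives. UMP1, the chaperone of core maturation, had 22.5 and 16.04 CPM in the deletion libraries and 10.8 and 7.78 CPM in wild type (1.06, adjusted p = 0.0179), and it did not pass under the offsets (0.0791), without wild type 2 (0.0712) or without deletion 2 (0.152). NAS6, which binds Rpt3 during assembly, was lower (-0.79, adjusted p = 0.0117) but did not pass under library totals (0.225) or without deletion 2 (0.0678). Of the 8 proteasome-associated proteins, ECM29 was lower (-0.52, adjusted p = 0.0487) and kept that call in 4 of 12 alternatives. The other 7, SEM1 (-0.38) among them, did not pass.

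Of the 4 ubiquitin genes, UBI4, the stress-responsive polyubiquitin gene, rose to 243 and 316 CPM in the deletion libraries, against 188 and 131 CPM in wild type (0.81, adjusted p = 0.0217). It did not pass without wild type 2 (0.111) or without deletion 3 (0.0817). RPS31, a fusion of ubiquitin to a ribosomal protein, was lower (log2 fold change -1.62, SE 0.16, adjusted p = 1.29e-04) and kept that call in all 12 alternatives. Ubiquitin genes hold near-identical repeats, so the assignment of reads among them is uncertain. Among 13 activating and conjugating enzymes, UBA1, the ubiquitin-activating enzyme, had 383 and 409 CPM in the deletion libraries, against 757 and 896 CPM in wild type (-1.06, adjusted p = 0.00201), and was called in all 12 alternatives. CDC34 (1.16) and UBC5 (1.73) were higher in all 12, and RAD6 (-0.73, adjusted p = 0.0215) was lower but kept its call in 7 of 12.

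Of 10 ubiquitin ligases SAN1, the nuclear quality-control ligase, was higher (0.82, adjusted p = 0.0270), and it did not pass without wild type 2 (0.110) or without deletion 2 (0.195). Of the ligases 10% were thus called higher and 0% lower, against 21.2% and 20.7% of all features tested. Cdc48 is the segregase that extracts ubiquitylated proteins. Of 11 genes for Cdc48, its cofactors and shuttle factors 3 rose and 4 fell (27.3% and 36.4%, with a median of -0.12). UBX2 had 85.6 and 81.7 CPM in the deletion libraries, against 27.9 and 32.3 CPM in wild type (1.47, adjusted p = 5.84e-04). SHP1 had 74.0 and 91.8 CPM in the deletion libraries, against 199.6 and 219.9 CPM in wild type (-1.34, adjusted p = 0.00100). Both are adaptors of Cdc48, and both calls held in all 12 alternatives. The shuttle factors RAD23 (1.12, in all 12) and DSK2 (-0.76, in 8 of 12) moved in opposite directions. NPL4 was higher (0.58, in 6 of 12), and CUE1 (-0.99, in 9 of 12) and DER1 (-0.67, in 8 of 12) were lower. Of 19 deubiquitinating enzymes 4 rose and 1 fell (median 0.05). That is 21.1% higher, near the 21.2% of all features tested, and 5.26% lower, against 20.7%. UBP5 (1.69) and UBP9 (1.06) were higher in all 12 alternatives, UBP10 (0.88) and UBP3 (0.63) in 10 of 12, and UBP12 was lower (-0.68) in 8 of 12.

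In the authors' deposited table, which lists 6456 features, 3 of the 33 proteasome genes were higher and 7 lower at an adjusted p below 0.05. All 10 were called in the same direction here, and RPN13 was the gene called here that had an adjusted p of 0.0597 in the authors' deposited table. The share of all features called in that deposited table was not computed, so its counts for the 33 genes cannot be read against it.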

How the data were processed

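Total RNA of 2 dbp2 deletion and 2 wild-type libraries had been depleted of ribosomal RNA and sequenced with strand information on the SOLiD platform, per the labels' protocols. The authors deposited whole-number sense-strand read counts per feature, not normalized, per the file headers. Their deposited edgeR table gives a log2 fold change, a mean log2 CPM, a p-value and an adjusted p-value per feature, per the file headers. Reads were placed on R64 (sacCer3), per the submitters' processing notes, and the aligner and counting program are unknown (not given in the sources used here). DBP2, at -7.45, was used to check the direction of the deposited fold change.

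The 33 genes and the related lists were chosen with earlier results of these data known. The report accounts for all 33 genes and names every called gene of the related lists. Library numbers are those of the count columns and only name libraries. Counts were fitted with edgeR 4.0.16 in R 4.3.3: filterByExpr, TMM scaling, quasi-likelihood F test on strain (glmQLFit, glmQLFTest), and Benjamini-Hochberg adjustment over all 6124 features tested. Genes with an adjusted p below 0.05 count as called. CPM values are TMM-scaled, the SE is the log2 fold change divided by the square root of F, and intervals are 95% intervals of the fit. A total of 3 counts corresponds to 0.0833 and 0.120 CPM of the unscaled total in the deletion libraries and 0.276 and 0.238 CPM in wild type, for counting error only. No library was a copy of another: within a strain, chi-square over its degrees of freedom was 116 (deletion) and 39.4 (wild type). The 12 alternatives were library totals, median-ratio size factors, abundance-dependent offsets, no filter, a mean count of 50 or more, DESeq2 1.42.0, edgeR's exact and likelihood-ratio tests, and each library left out. Genes, coordinates (1-based) and windows of 300 bases were read from the RefSeq R64 genome.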

Additional observations from a re-analysis of the deposited data

How the results depend on the processing

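Scaling moved the results most. Under library totals 10 of the 33 genes were called higher and 1 lower, their median log2 fold change was 0.25, and 2502 features were called higher and 583 lower over the whole table. Under abundance-dependent offsets 5 were higher and 1 lower, with a median of 0.16. Genes that were not called under TMM changed sign, and were called under neither setting, under library totals and the offsets in that order: PRE9 (0.26 and 0.19), PRE10 (0.15 and 0.16), PRE3 (0.36 and 0.27), PRE7 (0.34 and 0.20), RPT1 (0.0069 and 0.068), RPT3 (0.24 and 0.19), RPN2 (0.012 and 0.13), RPN10 (0.23 and 0.14), RPN3 (0.10 and 0.14), RPN5 (0.33 and 0.27), RPN6 (0.25 and 0.087) and RPN11 (0.32 and 0.18). The cause was not tested. Median-ratio size factors, a mean count of 50 or more, and edgeR's exact and likelihood-ratio tests changed no call of the 33 genes, and DESeq2 and no filter each lost RPN13.

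With 1 library left out, the lone library of a strain is assumed to vary like the other strain. Genes called higher numbered 1 when deletion 3 was left out and up to 4 when wild type 1 was, and the count of genes called lower was 2 when wild type 2 was left out, 5 without deletion 2 and up to 9 without wild type 1. The log2 fold change of RPN4 ran from -0.12 to 0.25, of PRE3 from -0.28 to 0.16, of RPT3 from -0.38 to 0.034, of RPT6 from -0.017 to 0.24 and of RPN11 from -0.23 to 0.027. Of the related genes 8 to 19 were called higher and 5 to 9 lower with 1 library left out, and 31 and 3 under library totals.

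The 8-letter PACE, GTGGCAAA, chosen after seeing the data, was in 144 windows and in 30 of the 33 genes. Without the bases after the start codon, 68 windows held the full element. No paired analysis was possible because the count columns of the strains share only the number 2, and the replicate numbers of the labels could not be tied to the columns. With 2 libraries a strain, the intervals of some uncalled genes held changes as large as called ones. They reached up to 1.30 for RPN12, against an estimate of 0.70 for PRE4, which was called. A missed test thus does not show equal levels.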
